A study of Homo sapiens with 6 samples.

Results

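C/D box small nucleolar RNAs (snoRNAs) of 2 imprinted loci were examined in extracellular vesicles (EVs) released by Jurkat T cells with and without CD47. The members were all probe sets that the platform annotation lists with exactly 1 gene symbol beginning with SNORD113, SNORD114, SNORD115 or SNORD116. This gave 46 probe sets for 46 genes, of 19460 probe sets with 1 symbol for 18417 genes. The SNORD113 and SNORD114 families lie at 14q32 and had 2 and 4 members. The SNORD115 and SNORD116 families lie at 15q11 and had 20 members each.

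C/D box snoRNAs pair with other RNAs and carry fibrillarin and its partner proteins to them, which then methylate a ribose. The SNORD115 and SNORD116 copies are arranged in tandem in introns of SNHG14, a long transcript made from the paternal chromosome downstream of SNRPN, and they are known mainly from neurons. Loss of the SNORD116 copies is linked to Prader-Willi syndrome, and SNORD115 is complementary to the mRNA of the serotonin receptor HTR2C. The SNORD113 and SNORD114 copies lie in introns of a transcript made from the maternal chromosome near MEG3. Most of these RNAs have no established methylation target.

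WT EVs came from the human T cell leukemia line Jurkat (JK) and CD47- EVs from JinB8, a Jurkat mutant that lacks CD47. JinB8 is a somatic mutant. Both lines were grown in serum-free medium for 24 to 48 h. EV RNA of each line was labeled for 3 arrays, with 300.0 ng of total RNA per array. Each genotype is a single cell line, so other differences between the lines cannot be told apart from the loss of CD47. The series describes the replicates as cell cultures without saying how they were separated, and p values measure only the spread between these arrays, which may be technical. Values are log2 values from robust multi-array average (RMA), which places all arrays on a common distribution, so they give relative levels within the EV RNA of an array.

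The array medians over all probe sets lay between 5.08 and 5.14, and pairs of arrays correlated with r from 0.982 to 0.989 across probe sets. CD47 itself read 4.72, 4.69 and 4.72 in WT EVs and 4.58, 4.67 and 4.94 in CD47- EVs, so its probe set does not check the labels. Of 12 T cell marker probe sets, 8 had a mean above the median of the 381 olfactory receptor probe sets, genes that T cells do not normally express. These markers included CD3E, a chain of the T cell receptor complex, at 6.25, 6.15 and 5.95 in WT EVs and 6.43, 6.56 and 6.48 in CD47- EVs (adjusted p = 0.112 from limma).

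Most members read at the bottom of the arrays. Their median level over the 6 arrays was 2.89 on the log2 scale, against 5.21 for all probe sets with 1 symbol and 3.94 for the 69 other C/D box snoRNAs. Of the 46 members, 35 had a mean below the 5th percentile of all probe sets, and 45 had a mean below the olfactory receptor median of 5.45. The exception was SNORD116-15, with a mean of 5.79. Also below that median were 11481 of the 19460 probe sets with 1 symbol and 56 of the 69 other C/D box snoRNAs. By family, the median level was 2.91 for SNORD113, 2.99 for SNORD114, 2.69 for SNORD115 and 2.95 for SNORD116. Probes differ in how strongly they bind, so this gauge is rough, and calling a member the brightest describes the signal of its probe set and not the amount of that copy. The deposited values have no detection calls, and whether a dim probe set could show a change of its RNA was not tested.

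**Figure D1:**
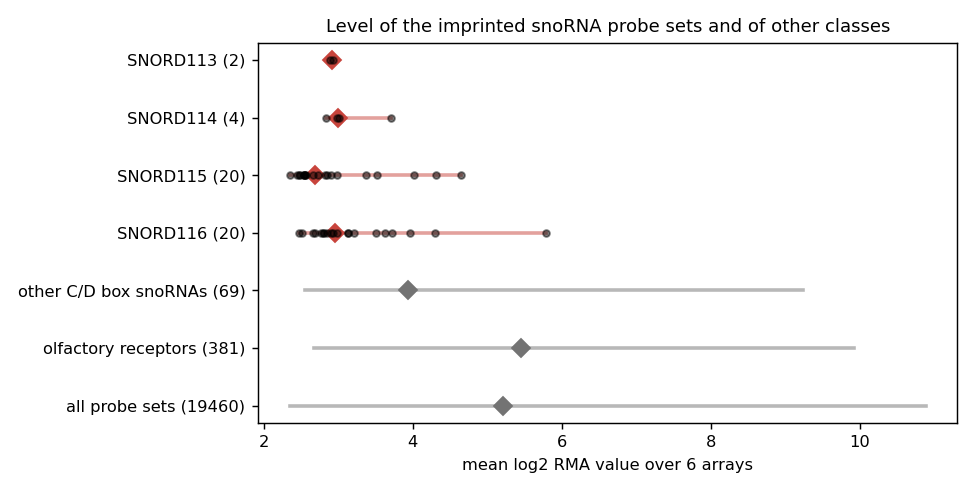
Mean log2 RMA value over 6 arrays (horizontal axis) for the 4 imprinted snoRNA families and 3 comparison classes, with the number of probe sets in parentheses. Diamonds are medians, lines run from the lowest to the highest probe set and dots are the single members. The 4 family medians lie between 2.69 and 2.99, and the highest member reads 5.79.

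The arrays covered the families unevenly. RefSeq (GRCh38.p14) lists 9 SNORD113 copies, 31 SNORD114 copies, 48 SNORD115 copies and 30 SNORD116 copies, and all 46 members matched one of them. The member RNAs are short, 71 to 77 nucleotides for SNORD114, 71 to 82 for SNORD115 and 85 to 104 for SNORD116. A further 22 SNORD115 copies and 9 SNORD116 copies were measured only by probe sets listed with several symbols, which the rule leaves out. Of the members, 3 SNORD115 copies and 8 SNORD116 copies were also named by such a shared probe set. Copies within a family are close in sequence, so probes for one copy may read others, and the probe sets do not separate a mature snoRNA from the intron it is cut from.

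With limma over 19460 probe sets, none of the 46 members passed the threshold of 0.05 for the adjusted p in either direction. Over all probe sets 0.725% passed, made up of 0.709% higher in CD47- EVs and 0.0154% lower. At an unadjusted p under 0.05, no member was higher and 3 were lower (background 5.26% and 2.89%, or 8.16% in all), namely SNORD115-48, SNORD116-25 and SNORD116-28. A test of each probe set with its own variance called 1 of all 19460 probe sets after adjustment, so its count of 0 members carries little information. At an unadjusted p under 0.05 this test had 2 members lower, SNORD116-25 and SNORD115-41, and did not include SNORD115-48 or SNORD116-28. For this test the share of all probe sets at that p was not computed. There were 23 members above 0 and 23 below. The split was 29 and 17 after centering on olfactory receptors, which moved the median of all probe sets from 0.0036 to 0.06. It was 19 and 27 without CD47- replicate 1. The members' median log2 difference was -0.0023, against 0.0036 for all probe sets with 1 symbol and -0.01 for the other C/D box snoRNAs.

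The precision was enough to bound these differences as measured. The standard errors of the members lay between 0.07 and 0.22, with a median of 0.09. The 95% interval of the log2 difference lay within 1 of 0, a 2-fold change, for 46 of 46 members. It lay within 0.5 of 0, a 1.41-fold change, for 43. The others were SNORD115-25, SNORD115-48 and SNORD116-6. These bounds hold for the array signal and could be smaller than the change of the RNA in probe sets near background.

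**Figure D2:**
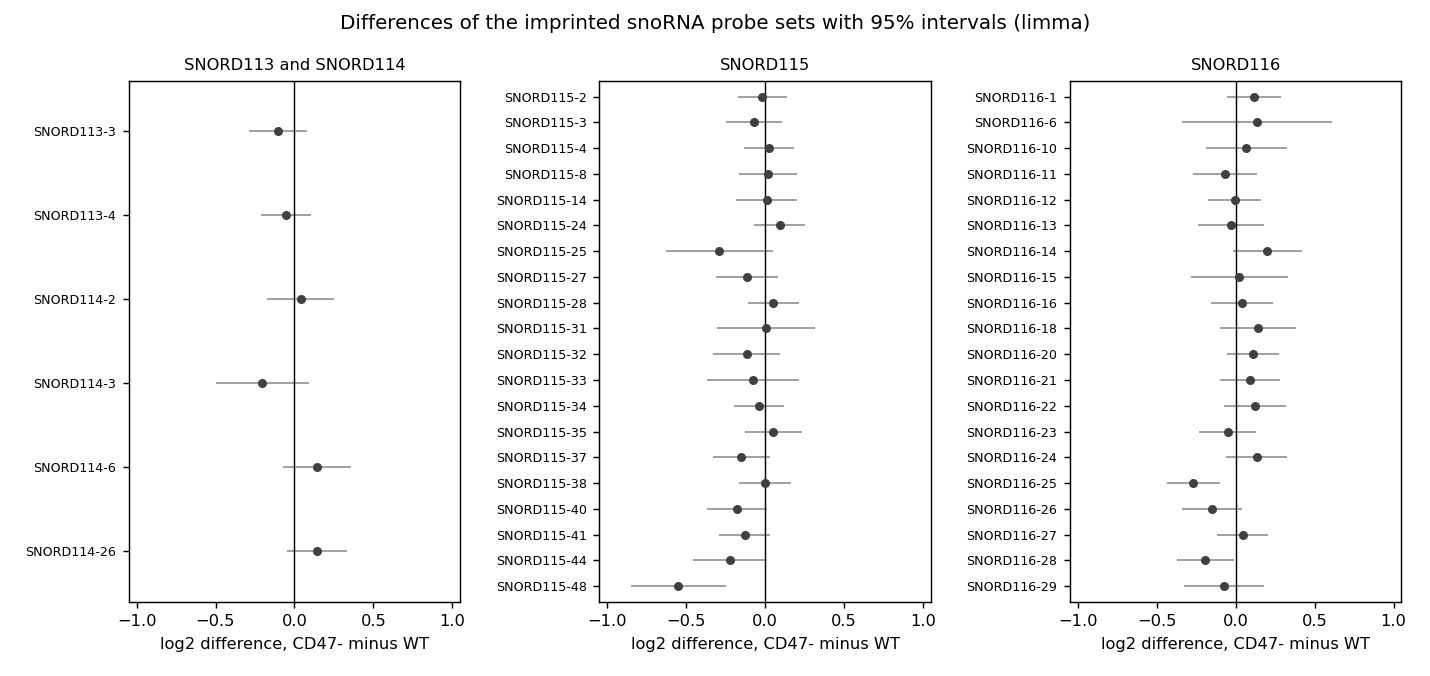
log2 difference of CD47- minus WT EVs (horizontal axis) for each of the 46 members, ordered by copy number, as points with 95% intervals from limma (n = 3 arrays per group). Most points lie within 0.2 of 0, and SNORD115-48 lies farthest out at -0.55.

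At 15q11, the SNORD115 family had 12 members below 0 and 8 above, with a median log2 difference of -0.06. After centering each array on olfactory receptors it was 0.0013. That centering also moved the median of all probe sets with 1 symbol, from 0.0036 to 0.06. The SNORD115 differences ran from -0.55 to 0.09. Of these 20 members, 1 had an unadjusted p under 0.05, and it was lower (background 2.89% lower and 5.26% higher).

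SNORD115-48, the copy with the highest number, read 3.49, 3.76 and 3.69 in WT EVs and 3.41, 3.12 and 2.76 in CD47- EVs. All 3 CD47- arrays lay below all 3 WT arrays, although CD47- replicate 1 came within 0.1 of the lowest WT array. The log2 difference was -0.55 (standard error 0.14, 95% interval -0.85 to -0.25, n = 3 arrays per group), which did not pass (unadjusted p = 0.00184, adjusted p = 0.135 from limma). Only 4.46% of the olfactory receptor probe sets had a lower mean. Without CD47- replicate 1 it passed, with a log2 difference of -0.71 (adjusted p = 0.0217 from limma). Over all alternatives the adjusted p ran from 0.0217 to 0.706.

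SNORD115-25, which the naming rule did not pick and which was added after its values were seen, depended on the same array. It read 4.05, 4.20 and 4.24 in WT EVs, and 4.33, 3.60 and 3.69 in CD47- EVs. CD47- replicate 1 was the highest of the 6 arrays and the other CD47- arrays were the lowest. The log2 difference was -0.29 (95% interval -0.63 to 0.05, adjusted p = 0.714 from limma), and it was -0.52 without CD47- replicate 1 (adjusted p = 0.0282). These 2 were the only members that passed under any alternative.

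The other SNORD115 members with small p values were also below 0. SNORD115-44, the brightest SNORD115 member, read 4.99, 4.70 and 4.58 in WT EVs and 4.57, 4.62 and 4.41 in CD47- EVs. The groups overlapped, and the log2 difference was -0.22 (95% interval -0.46 to 0.0095, adjusted p = 0.644 from limma), or -0.10 without WT replicate 1, the highest array. SNORD115-40 read 2.87, 2.74 and 2.62 in WT EVs and 2.66, 2.49 and 2.55 in CD47- EVs, a log2 difference of -0.18 (adjusted p = 0.654 from limma).

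On the other side, SNORD115-24 read 4.30, 4.22 and 4.27 in WT EVs and 4.34, 4.41 and 4.31 in CD47- EVs. No other member had every CD47- array higher than every WT array (background 7.39%), and SNORD115-24 did so by a log2 difference of 0.09 (95% interval -0.07 to 0.25, adjusted p = 0.855 from limma). SNORD115-28 and SNORD115-35 each had a log2 difference of 0.05 with overlapping groups. The members with CD47- arrays all below the WT arrays numbered 4 of 46 (background 5.51%), which were SNORD115-41, SNORD115-48, SNORD116-25 and SNORD116-28. SNORD115-41, outside the naming rule, had a log2 difference of -0.13.

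The SNORD116 family had 12 members above 0 and 8 below, with a median log2 difference of 0.04. Without CD47- replicate 1 the median was 0.0019, with 10 of 20 members above 0. In that setting the SNORD115 median was -0.11, and SNORD116 less SNORD115 was 0.11, against 0.10 in the fit reported. After centering on olfactory receptors the SNORD116 median was 0.10, with 15 of 20 above 0, and that of all probe sets was 0.06. A difference between the families was not tested. The SNORD116 differences ran from -0.27 to 0.20. Of the 20 SNORD116 members, 2 had an unadjusted p under 0.05, both lower (background 2.89% lower and 5.26% higher).

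SNORD116-25 read 2.92, 3.02 and 2.89 in WT EVs and 2.74, 2.66 and 2.62 in CD47- EVs. Each CD47- array lay below each WT array, with little spread within either group. The log2 difference was -0.27 (standard error 0.08, 95% interval -0.43 to -0.10), and it did not pass (unadjusted p = 0.00432, adjusted p = 0.212 from limma). The alternatives gave adjusted p values from 0.179 to 0.524. SNORD116-28 read 3.76, 3.73 and 3.95 in WT EVs and 3.56, 3.67 and 3.63 in CD47- EVs. These groups did not overlap either, and the log2 difference was -0.19 (95% interval -0.37 to -0.01, adjusted p = 0.569 from limma). SNORD116-26 had a log2 difference of -0.15 with overlapping groups (adjusted p = 0.751 from limma).

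Among the SNORD116 copies above 0, SNORD116-14 read 3.39, 3.61 and 3.21 in WT EVs and 3.61, 3.68 and 3.52 in CD47- EVs. The log2 difference was 0.20 (95% interval -0.02 to 0.42, adjusted p = 0.671 from limma), with WT replicate 2 inside the CD47- range. SNORD116-24 and SNORD116-1 had log2 differences of 0.13 and 0.12 (adjusted p = 0.79 and 0.804 from limma). SNORD116-15, the brightest of all members, read 6.08, 5.49 and 5.76 in WT EVs and 5.60, 5.75 and 6.05 in CD47- EVs, so the groups covered the same range. Its log2 difference was 0.02 (95% interval -0.29 to 0.33, adjusted p = 0.989 from limma), and it was -0.12 without WT replicate 2 and -0.10 without CD47- replicate 3. SNORD116-6, outside the naming rule, had the widest interval, -0.34 to 0.61, around a log2 difference of 0.14, which was -0.0060 without WT replicate 3 and -0.12 without CD47- replicate 3.

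**Figure D3:**
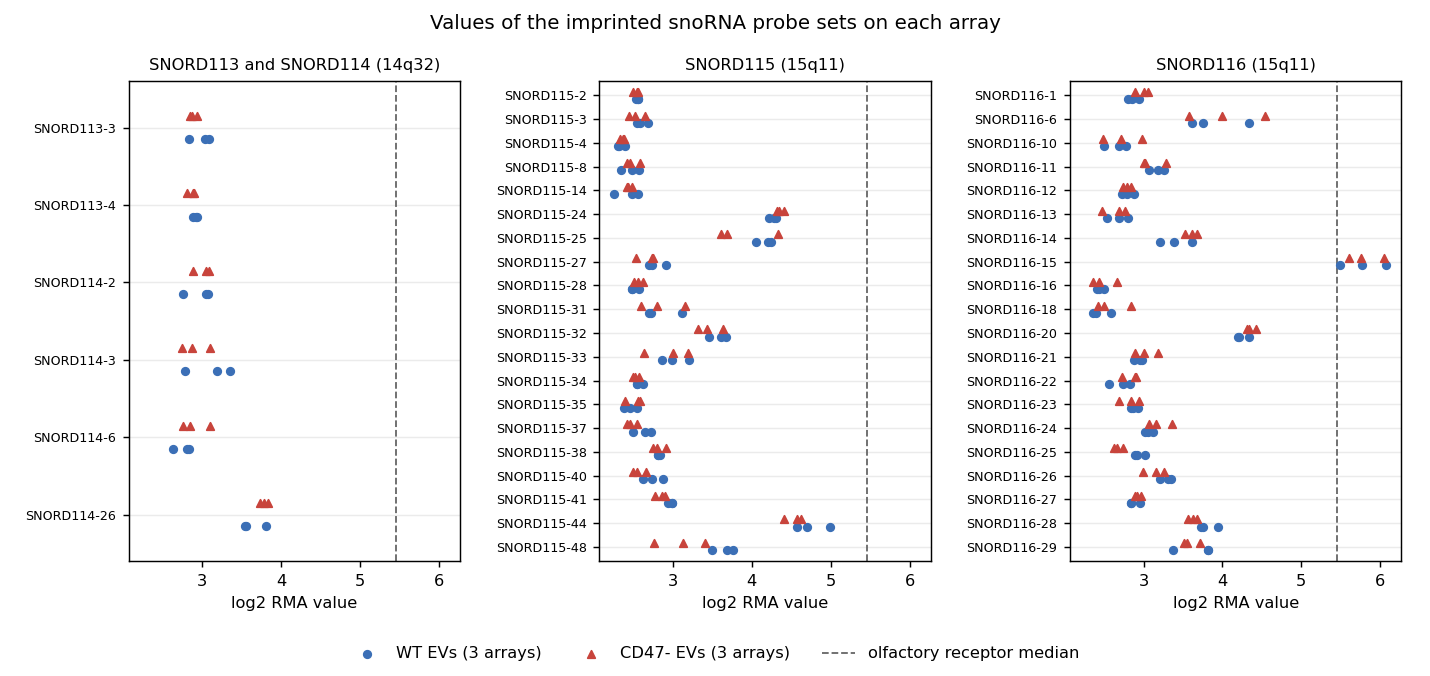
log2 RMA value (horizontal axis) of each member on each of the 6 arrays, with WT EVs as blue circles, CD47- EVs as red triangles and the olfactory receptor median of 5.45 as a dashed line. The symbols of the 2 groups overlap for most members, and SNORD116-15 is the one member to the right of the line.

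At 14q32, all 6 members had intervals that included 0, and none had an unadjusted p under 0.05 (background 8.16%). The SNORD113 members were both below 0, with a family median of -0.08 that kept its sign in every alternative that had a value. SNORD113-3 read 3.03, 3.09 and 2.83 in WT EVs and 2.87, 2.84 and 2.93 in CD47- EVs (log2 difference -0.10, adjusted p = 0.866 from limma). SNORD113-4 had a log2 difference of -0.05. After centering on the olfactory receptor probe sets it was 0.0054, and the median of all probe sets was 0.06. In both SNORD113 members, the groups overlapped.

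Of the 4 SNORD114 members, 3 were above 0 and 1 was below. SNORD114-26, the brightest of them, read 3.55, 3.81 and 3.55 in WT EVs and 3.83, 3.78 and 3.73 in CD47- EVs, with WT replicate 2 among the CD47- values. The log2 difference was 0.14 (95% interval -0.05 to 0.34, adjusted p = 0.761 from limma). SNORD114-6 had a log2 difference of 0.15 and SNORD114-2 of 0.04, the latter -0.06 without WT replicate 1. SNORD114-3 read 3.19, 2.78 and 3.35 in WT EVs and 2.74, 3.10 and 2.86 in CD47- EVs, with an SD of 0.29 among the WT arrays, and its log2 difference was -0.20 (95% interval -0.50 to 0.09, adjusted p = 0.791 from limma). It was -0.37 without WT replicate 2 (unadjusted p = 0.00785, adjusted p = 0.312 from limma) and -0.08 without WT replicate 3.

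The 2 loci were compared by the median of their members on each array. The WT and CD47- means were 2.98 ± 0.02 and 2.92 ± 0.04 at 14q32 (SD, n = 3 each). At 15q11 they were 2.86 ± 0.0066 and 2.85 ± 0.05 (SD, n = 3 each). The difference of the 2 loci, 14q32 minus 15q11, was 0.09, 0.12 and 0.14 in the WT arrays and -0.02, 0.11 and 0.12 in the CD47- arrays. The groups overlapped. The members' median log2 differences were -0.0050 at 14q32 and -0.0023 at 15q11. With 6 members at 14q32, that locus is thinly covered.

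The 2 families within 15q11 were compared in the same way. The SNORD115 median was 2.69, 2.74 and 2.72 in WT EVs and 2.70, 2.57 and 2.61 in CD47- EVs, and the SNORD116 median was 2.95, 3.00 and 2.92 in WT EVs and 3.01, 3.03 and 2.93 in CD47- EVs. Neither family alone separated the groups. The SNORD116 median less the SNORD115 median was 0.25, 0.26 and 0.20 in the WT arrays and 0.31, 0.46 and 0.32 in the CD47- arrays, and these groups did not overlap. The WT mean was 0.24 ± 0.03 and the CD47- mean 0.36 ± 0.08 (SD, n = 3 each). A difference within an array does not change when an array is recentered. The 40 members share arrays and sequence, the comparison was picked after the values were seen, and no test was made.
The SNORD114 family shows how far such medians depend on their construction, because its median of log2 differences was 0.09 while the difference of its array medians was -0.03.

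**Figure D4:**
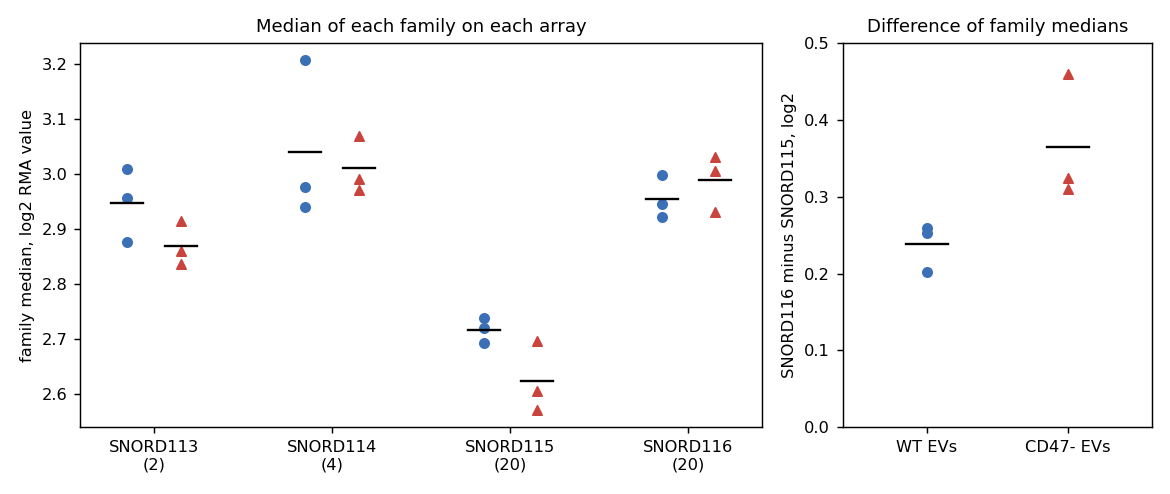
Left, median log2 RMA value of each family (number of members in parentheses) on each array, with WT EVs as blue circles, CD47- EVs as red triangles and bars for the group means. Right, the SNORD116 median less the SNORD115 median on each array, which runs from 0.20 to 0.26 in WT EVs and from 0.31 to 0.46 in CD47- EVs.

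Probe sets listed with several symbols cover further copies of the 15q11 families and were fitted together with all 33297 probe sets of the arrays. There were 17 of them, but only 12 different sets of values, since some of these probe sets held identical values on all 6 arrays. Of the 17 probe sets, an unadjusted p under 0.05 was found for 2, both lower in CD47- EVs (background 3.03% lower and 5.01% higher). None passed after adjustment with limma (background 0.544%). For groups that do not overlap, the share over all 33297 probe sets was not computed. Among probe sets with 1 symbol it was 7.39% with CD47- above and 5.51% with CD47- below. The probe set for SNORD116-6 and SNORD116-2 read 6.25, 6.03 and 5.99 in WT EVs and 5.24, 5.52 and 5.72 in CD47- EVs. Its groups did not overlap, and its log2 difference of -0.60 (standard error 0.13, adjusted p = 0.173 from limma) was larger than that of any member. The member SNORD116-6, measured by a probe set of its own, had a log2 difference of 0.14. A further shared probe set, for SNORD116-9, SNORD116-8, SNORD116-6 and SNORD116-3, had a log2 difference of -0.10 with overlapping groups.
The probe set for SNORD115-7 and SNRPN read 3.56, 3.50 and 3.34 in WT EVs and 3.29, 3.06 and 3.10 in CD47- EVs, a log2 difference of -0.32 (adjusted p = 0.347 from limma). A set of values shared by 3 probe sets, named for 17 SNORD115 copies and SNRPN, was 4.39, 4.48 and 4.44 in WT EVs and 4.31, 4.20 and 4.30 in CD47- EVs, with groups that did not overlap and a log2 difference of -0.16 (adjusted p = 0.624 from limma). The bright set of values shared by 2 probe sets for SNORD116-14 to SNORD116-22 and SNRPN had a log2 difference of 0.06, with WT arrays from 5.75 to 6.10 and CD47- arrays from 5.88 to 6.03.

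**Figure D5:**
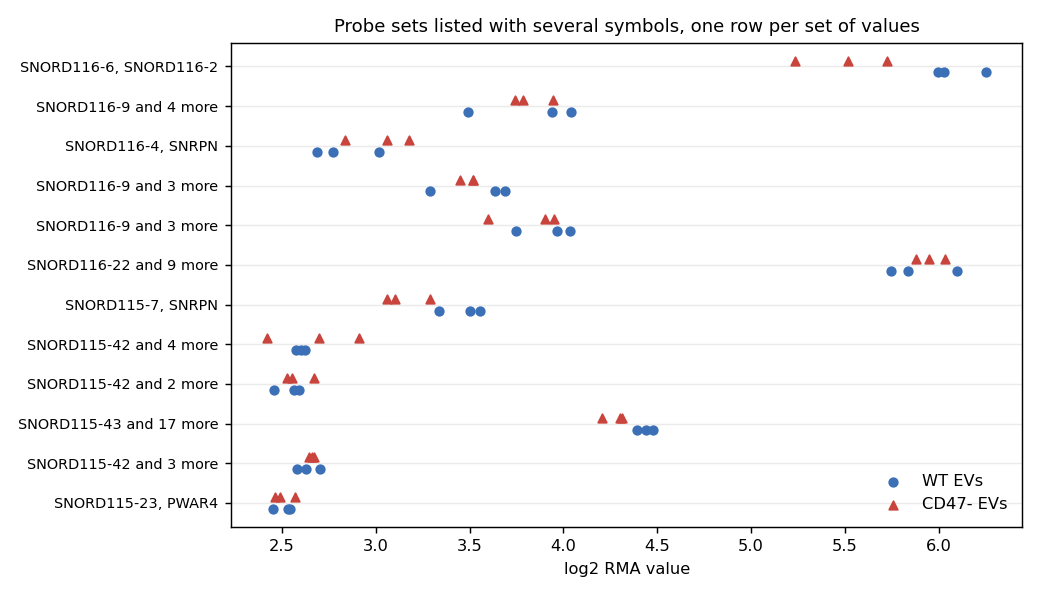
log2 RMA value (horizontal axis) on each of the 6 arrays for the 12 different sets of values of the probe sets listed with several symbols, with WT EVs as blue circles and CD47- EVs as red triangles. The WT and CD47- symbols are separate for SNORD116-6 with SNORD116-2, for SNORD115-7 with SNRPN and for the set named for SNORD115-43 and 17 more symbols.

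Neighboring genes of the same imprinted loci were listed to place the snoRNAs among them. Of 7 measured 15q11 genes none passed with limma or had an unadjusted p under 0.05, and their median log2 difference was 0.0021. NDN, which encodes a growth regulator of neurons, had a log2 difference of -0.08, the noncoding PWAR6 of 0.09 and the ubiquitin ligase gene UBE3A of 0.0021. No single-symbol probe set stood for the host transcript SNHG14. The probe set shared by SNURF and SNRPN had a log2 difference of 0.10 (adjusted p = 0.879 from limma). Of 21 measured 14q32 genes, most of them microRNA genes, none passed or had an unadjusted p under 0.05 (median log2 difference -0.03). The noncoding MEG3 read 5.97, 6.22 and 5.97 in WT EVs and 6.24, 6.08 and 6.05 in CD47- EVs, a log2 difference of 0.07, and the groups overlapped. The microRNA gene MIR495 had a log2 difference of 0.13 and DIO3, a thyroid hormone deiodinase, of -0.12.

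The mRNAs for proteins that C/D box snoRNAs work with were measured on the same arrays. FBL, which encodes the methyltransferase fibrillarin, read 6.66, 6.85 and 6.72 in WT EVs and 7.07, 7.02 and 7.13 in CD47- EVs. The groups did not overlap, and the log2 difference was 0.33 (95% interval 0.16 to 0.51, adjusted p = 0.103 from limma), which did not pass. NOP58, a core protein of the same particle, had a log2 difference of 0.10 (adjusted p = 0.899 from limma). Of 13 measured genes for assembly factors, 2 passed, both higher (background 0.709% and 0.0154%), with a median log2 difference of 0.08. These were the chaperones HSP90AA1 (0.87, adjusted p = 0.00106 from limma) and HSP90AB1 (1.16, adjusted p = 0.00204 from limma), which serve many other proteins. RUVBL2, an ATPase of the assembly complex, had a log2 difference of 0.27 and did not pass (adjusted p = 0.354 from limma).

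The other C/D box snoRNAs were taken as the nearest class. None of 69 passed with limma, and 4 were lower and 1 higher by the unadjusted p (background 2.89% and 5.26%). The olfactory receptor probe sets had 39 lower and 4 higher of 381 at the same threshold, with a median log2 difference of -0.04, so a lean toward lower values was also present in a class that T cells do not normally express. Whether the lower values of single snoRNAs belong to that lean was not tested.

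HTR2C, the mRNA with a stretch complementary to SNORD115, read between 3.25 and 3.43 on the 6 arrays, a log2 difference of -0.08 (adjusted p = 0.898 from limma). Its mean was above 4.46% of the olfactory receptor means. None of 18 neuron marker probe sets passed (median log2 difference -6.5e-05, median level 5.29), with 1 lower at an unadjusted p under 0.05 (background 2.89%), MAP2 (-0.22). The next smallest p was that of a probe set for RBFOX3 (0.25), whose other probe sets had log2 differences of 0.15 and 0.01 with overlapping groups. For 2 of the 18 (background 7.39%), STMN2 (0.16) and NEFM (0.14), all CD47- arrays lay above the WT arrays. By sign, 9 of the 18 were above 0 and 9 below. Likewise none of 5 B cell, 9 myeloid or 5 erythroid and platelet marker probe sets passed with limma or had an unadjusted p under 0.05, and their median log2 differences were -0.02, 0.01 and -0.0094. Those with the smallest p were CD79A (-0.16) and MS4A1 (0.13), FCGR3A (0.09) and MPO (0.07), and ALAS2 (0.14) and HBB (-0.10). Their median levels of 5.32, 5.27 and 5.51 lie near the olfactory receptor median. Of 12 T cell marker probe sets none passed, 3 were higher at an unadjusted p under 0.05 (CD3D, CD3E and CD3G, background 5.26%), and the median was 0.07. UBE3A, MEG3, SNRPN, RUVBL2, STMN2, NEFM and CD3D were named outside the naming rule, after their values were seen.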

How the data were processed

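RNA of EVs from WT (JK) and CD47- (JinB8) T cells was measured on 6 Affymetrix human gene arrays, 3 per group, grouped by the submitters' titles. The authors deposited log2 values. The labels name RMA and Affymetrix Expression Console for them and give no version. RMA corrects background, normalizes by quantiles and summarizes probe sets. The labels name Trizol and RNeasy kits; how well these recover RNAs as short as snoRNAs was not tested. The number of arrays limits the precision.

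Gene symbols came from the annotation of the platform. Of 33297, 19460 had 1 symbol, 1754 several and 12083 none. All probe sets with 1 symbol were fitted, each by itself and with no filter, with limma 3.58.1 (lmFit, eBayes) in R 4.3.3, with Benjamini-Hochberg adjustment over all of them and a threshold of 0.05. Probe sets with several symbols were taken from a fit of all 33297. The step was tested on simulated independent normal values, which cannot show how dim probe sets respond to a change of their RNA. Named members were the 3 with the smallest p in each direction in each family and the brightest of each family, with any that passed; of each other list the 2 with the smallest p and up to 4 that passed were eligible. The members and lists were chosen with earlier results of these data known. Neither snoRNA sequences nor positions are printed.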

Additional observations from a re-analysis of the deposited data

How the results depend on the processing

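Over the alternatives, the count of members that passed stayed at 0 except without CD47- replicate 1, and leaving out each array gave 0 to 2. The members with an unadjusted p under 0.05 numbered 3 in the fit reported, all lower. With the replicate number as a block they numbered 5, of which 1 was higher and 4 were lower. After centering on the olfactory receptors 1 was higher, SNORD116-14, and 2 were lower. Among probe sets above the olfactory receptor median, where only SNORD116-15 was left, there were 0. Leaving out 1 array gave 2 to 6, with 6 without WT replicate 2, of which 2 were higher, and 6 without WT replicate 3, all lower. The shares of all probe sets at this p were not computed under these alternatives. Over all probe sets with 1 symbol, 141 passed, 247 after centering on the olfactory receptors (median of all probe sets 0.06), 1 with unshared variance, and 65 to 119 without 1 array, with 65, 88 and 72 without WT replicate 3, CD47- replicate 2 and CD47- replicate 3. After that centering the medians were -0.021 for SNORD113, 0.0013 for SNORD115 and 0.10 for SNORD116. Without 1 array they ran from -0.11 to -0.05 for SNORD113, 0.01 to 0.13 for SNORD114, -0.11 to -0.023 for SNORD115 and 0.0019 to 0.06 for SNORD116. The lowest SNORD115 value came without CD47- replicate 1. For the medians of the log2 differences, which are not the array medians, 14q32 less 15q11 was -0.0027 and ran from -0.06 to 0.05 without 1 array, and SNORD116 less SNORD115 was 0.10 and ran from 0.06 to 0.11. The differences of array medians were not recomputed under the alternatives. Signs reversed for SNORD113-4 after the centering (0.0054), SNORD114-2 without WT replicate 1 (-0.058), SNORD116-15 without WT replicate 2 (-0.12) or CD47- replicate 3 (-0.10), and SNORD116-6 without WT replicate 3 (-0.0060) or CD47- replicate 3 (-0.12). Without 1 array, SNORD116-15 reached 0.17 and SNORD116-6 0.37. The causes were not tested. Arrays with the same replicate number shared little deviation from their group means (correlations 0.02, -0.02 and -0.04 over all probe sets with 1 symbol). Whether the cultures were paired is not known. The block left 111 of all probe sets and 0 members past the threshold.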
